A study of Mus musculus with 12 samples.

Results

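Expression of 10 genes that mark lipid-associated macrophages recruited to the liver was followed in bulk liver RNA-seq of 12 male mice. The genes were *Trem2*, *Gpnmb*, *Cd9*, *Itgax*, *Cd63*, *Mmp12*, *Lpl*, *Lgals3*, *Fabp5* and *Ms4a7*, matched by symbol in both deposited tables, and all 10 were found among the 20775 genes of the chow table and the 22709 genes of the HFCF table. The 4 groups held 3 mice each. Per the labels, every mouse was a C57BL/6N male of 4 to 6 months with both *Elavl1* alleles floxed (HuR flox/flox; *Elavl1* encodes the RNA-binding protein HuR). Mice labelled HuRHep-/- had received the virus AAV8-Tbg-Cre, in which a hepatocyte promoter drives Cre, and WT controls had received AAV8-Tbg-null. The chow groups ate normal chow, and the HFCF groups ate a diet of 40 kcal% fat, 2% cholesterol and 20 kcal% fructose for 16 weeks. The study's methods describe an albumin-Cre cross in place of the virus, and the counts do not show which description holds. Both drivers act in hepatocytes and not, by design, in macrophages. Each library came from 1 mouse.

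Resident Kupffer cells are the macrophages that seed the liver before birth and line its sinusoids. In steatotic liver, monocytes that carry the chemokine receptor Ccr2 enter from the blood, and many of them mature into cells that take up lipid, sit around fatty or dying hepatocytes and switch on a shared program led by the lipid receptor Trem2. The 10 genes cover that program's surface proteins (*Trem2*, *Gpnmb*, *Itgax*, *Ms4a7*, *Cd9* and *Cd63*), its lipid handling (*Lpl* and *Fabp5*), and secreted or matrix-acting products (*Lgals3* and *Mmp12*). *Cd9*, *Cd63*, *Lpl*, *Fabp5* and *Lgals3* are also made by other cells. In bulk tissue, more cells of a type and more RNA per cell cannot be told apart.

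The promoters of the 3 genes with the largest change between diets in livers labelled HuRHep-/- (*Mmp12*, *Gpnmb* and *Itgax*) and of *Trem2*, which gives the program its usual name, are shown as examples of the genes that the diet comparison turns on. Each line gives the 250 bases before a RefSeq start site (GRCm38.p6, written 5′ to 3′ on the gene's strand). Capitals mark matches on either strand to the PU.1 core GAGGAAG, the AP-1 site TGANTCA, the E-box CACGTG, the M-box core CATGTG or the TATA box TATAAA.
Trem2, chr17:48346151-48346400, plus strand: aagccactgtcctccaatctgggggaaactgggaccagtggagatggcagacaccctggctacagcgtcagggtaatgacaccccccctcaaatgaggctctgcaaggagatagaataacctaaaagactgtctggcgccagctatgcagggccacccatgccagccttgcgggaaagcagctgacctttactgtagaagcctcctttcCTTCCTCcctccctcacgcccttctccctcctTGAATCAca
Itgax, chr7:128129300-128129549, plus strand: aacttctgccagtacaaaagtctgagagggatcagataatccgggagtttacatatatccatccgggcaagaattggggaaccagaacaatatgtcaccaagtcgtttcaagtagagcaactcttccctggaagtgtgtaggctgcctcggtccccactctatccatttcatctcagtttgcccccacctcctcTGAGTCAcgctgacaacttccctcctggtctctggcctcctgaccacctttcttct
Gpnmb, chr6:49036268-49036517, plus strand: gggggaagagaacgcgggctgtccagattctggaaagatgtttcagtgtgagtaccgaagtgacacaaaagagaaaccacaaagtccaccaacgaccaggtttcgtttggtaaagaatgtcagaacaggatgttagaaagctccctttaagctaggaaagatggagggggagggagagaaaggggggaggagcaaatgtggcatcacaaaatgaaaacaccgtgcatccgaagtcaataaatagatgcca
Mmp12, chr9:7344147-7344396, plus strand: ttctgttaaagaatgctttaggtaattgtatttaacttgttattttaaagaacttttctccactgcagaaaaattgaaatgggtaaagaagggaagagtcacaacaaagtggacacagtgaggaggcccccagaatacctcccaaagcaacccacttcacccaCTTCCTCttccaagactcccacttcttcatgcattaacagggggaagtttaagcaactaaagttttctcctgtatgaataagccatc

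PU.1 is the master factor of the myeloid lineage, AP-1 is an activation factor, and E-boxes and M-boxes bind factors of lysosome genes. In *Trem2*, the PU.1 core began 41 bases before the start and the AP-1 site 9 bases before it. The *Itgax* window held an AP-1 site that began 56 bases before the start, the *Mmp12* window shown a PU.1 core that began 87 bases before it, and the *Gpnmb* window none of the 5 motifs. RefSeq promoter sequence was matched for 8 of the 10 genes, with 10 start sites between them, and *Lpl* and *Fabp5* had none here. A second *Mmp12* start, not shown, had an AP-1 site that began 44 bases before it and an M-box core 83 bases before it. The PU.1 core lay in 3 of these 10 windows and in 10.6% of all 32851 windows of that length. The AP-1 site lay in 4 of 10, against 6.75% of all. The M-box core was found in 2 of 10 against 12.3%, the E-box in 0 of 10 against 6.02%, and the TATA box in 0 of 10 against 12.4%. These matches describe letters in a window and were not tested as binding sites.

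Before the members, the targeted gene was examined. *Elavl1* stood at 31.1, 29.3 and 31.3 CPM (read counts scaled to a common library total, with TMM factors that correct for composition) in the chow WT livers, and at 42.9, 39.4 and 39.0 CPM in the chow livers labelled HuRHep-/-. On HFCF it stood at 23.8, 24.2 and 27.0 CPM in WT livers and at 32.1, 31.9 and 33.7 CPM in livers labelled HuRHep-/-. The level was therefore higher, not lower, in every liver labelled HuRHep-/- than in every WT liver of the same diet (log2 fold change 0.40, SE 0.070, adjusted p = 0.0254 in chow; 0.38, SE 0.071, adjusted p = 0.0326 in HFCF). Counts over the whole gene do not separate a transcript that lacks the floxed part, so the count does not show whether recombination took place, and genotype is used here as labelled. Libraries held 30071731 to 35949203 counts. *Alb*, the hepatocyte's main secreted protein, stood at 40350 to 80230 CPM. The macrophage marker *Adgre1* (F4/80) was detected in every library, at 4.81 to 20.3 CPM, as was the Kupffer cell marker *Clec4f*, at 49.7 to 120.0 CPM.

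Counts in chow were low for some of the genes. *Mmp12* had 6 to 17 counts per chow library, *Gpnmb* 4 to 12 in all chow libraries but 1, *Itgax* 7 to 24, *Ms4a7* 16 to 52 and *Trem2* 15 to 74, whereas *Cd9* had 465 to 843, *Lpl* 496 to 2583 and *Fabp5* 670 to 1432. Per kilobase of the principal transcript, the mean level in chow WT livers was highest for *Fabp5* (35.9 CPM per kb), *Cd9* (14.9), *Lpl* (4.77) and *Cd63* (4.06), and lowest for *Mmp12* (0.064) and *Gpnmb* (0.057). In HFCF livers labelled HuRHep-/- the order had changed, with *Cd63* (26.9 CPM per kb), *Cd9* (26.4) and *Lpl* (24.2) on top, *Fabp5* at 10.2 and *Gpnmb* at 5.38. In 6 of the 10 genes (*Trem2*, *Cd63*, *Gpnmb*, *Ms4a7*, *Mmp12* and *Lgals3*) the group means rose in the order chow WT, chow HuRHep-/-, HFCF WT and HFCF HuRHep-/-. None of these 6 genes was called between genotypes in either diet, and the step from chow HuRHep-/- to HFCF WT was not tested.

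**Figure D1:**
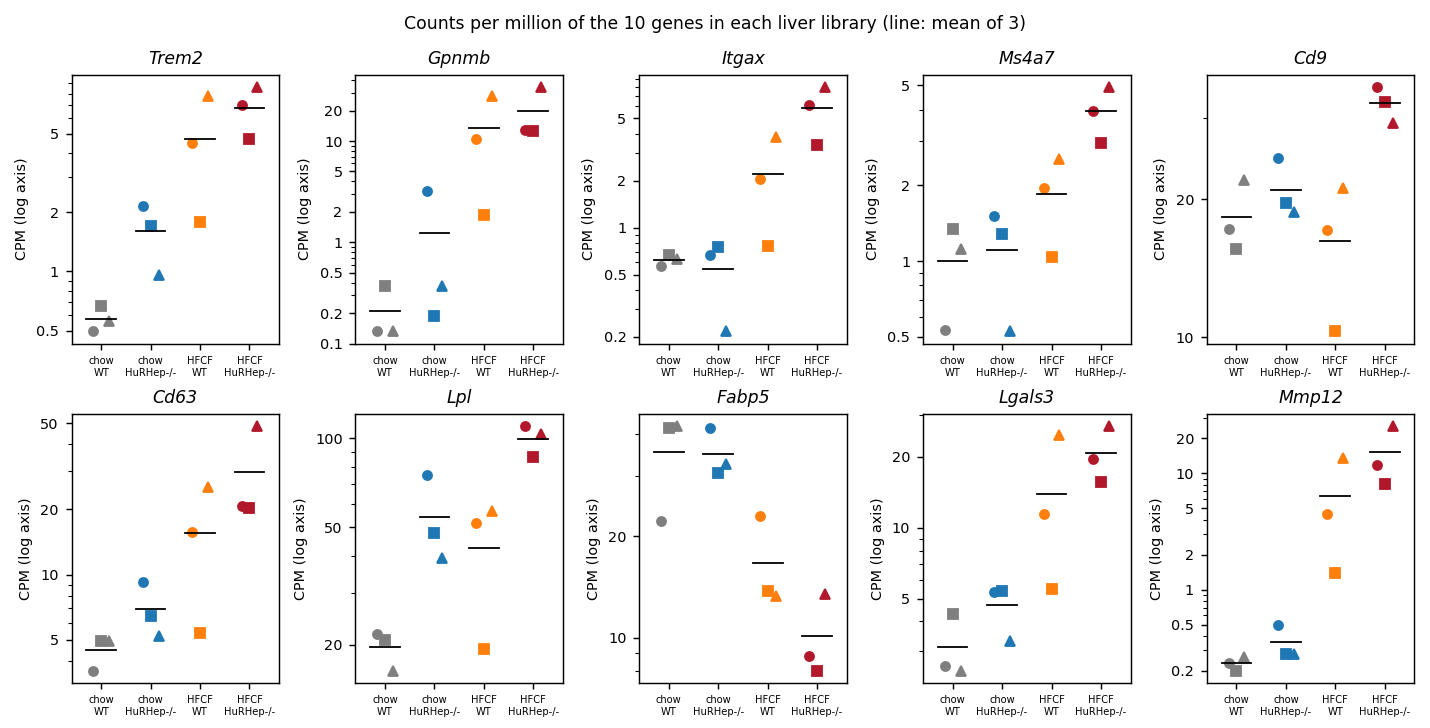
Level of each of the 10 genes (vertical axis, CPM on a log scale) in each liver library of the 4 groups (horizontal axis). Circles, squares and triangles are replicates 1, 2 and 3, and the line is the mean of 3. Replicate 2 of HFCF WT is the lowest of its group in 9 of 10 genes, and *Fabp5* is the gene whose group means are lower on HFCF than on chow in both genotypes.

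Libraries of one group differed in most of the genes at once. In HFCF WT, replicate 2 was the lowest of its group for 9 of the 10 genes and replicate 3 the highest for 9. In HFCF HuRHep-/-, replicate 2 was lowest for 9 and replicate 3 highest for 8. In chow HuRHep-/-, replicate 1 was highest for 8 and replicate 3 lowest for 8. The ratio of the highest to the lowest liver of HFCF WT was 15.04 for *Gpnmb*, 9.80 for *Mmp12* and 4.40 for *Trem2*, against 2.74, 3.13 and 1.84 in HFCF livers labelled HuRHep-/-. HFCF WT replicate 2 also had the lowest summed level of its group for monocyte markers (21.2 CPM against 31.7 and 45.4) and for stellate cell and fibroblast markers (171.0 CPM against 314 and 389), whereas its summed pan-macrophage level of 319 CPM lay between the other two (294 and 439). What sets this liver apart was not tested.

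HFCF feeding in WT mice was examined for the recruited-macrophage program first. A gene was called when the adjusted p was at most 0.05 and the fold change at least 1.5. Of the 10 genes, 5 were called higher on HFCF (*Trem2*, *Gpnmb*, *Cd63*, *Lgals3* and *Mmp12*), against 6.54% of the 14535 genes tested, and 1 was called lower (*Fabp5*), against 3.36%. The median log2 fold change of the 10 genes was 1.53 (2.155 without HFCF WT replicate 2), and that of all genes tested was 0.0025. Groups did not overlap, with all HFCF livers higher, for 6 of the 10 genes, against 17.4% of all genes. Each diet has its own table, so diet and anything else that differed between the tables cannot be told apart. *Mmp12* had fewer than 10 counts in each chow WT liver and *Gpnmb* in 2 of 3. *Mmp12* entered both diet contrasts through its HFCF libraries, where it was high. Of the 8 genes other than this pair, 3 were called higher and 1 lower (median log2 fold change 1.255).

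Among the surface proteins, *Trem2* was at 0.497, 0.670 and 0.560 CPM in chow WT livers and at 4.48, 1.78 and 7.82 CPM in HFCF WT livers. Every HFCF WT liver was above every chow WT liver (log2 fold change 2.76, SE 0.461, adjusted p = 0.00225; 3.33 without HFCF WT replicate 2). *Gpnmb*, a glycoprotein of lysosomes and the cell surface, was at 0.133, 0.368 and 0.132 CPM in chow WT and at 10.5, 1.84 and 27.7 CPM in HFCF WT. Its groups were again apart, with the widest spread of the 10 genes on HFCF (log2 fold change 5.32, SE 1.05, adjusted p = 0.00478), and without HFCF WT replicate 2 the value was 6.38. *Itgax*, the integrin chain CD11c, was at 0.563, 0.670 and 0.626 CPM in chow WT and at 2.05, 0.766 and 3.81 CPM in HFCF WT. These groups did not overlap, but the change was not called (log2 fold change 1.53, SE 0.567, adjusted p = 0.0693), and without HFCF WT replicate 2 it was (2.15, adjusted p = 0.0115). *Ms4a7*, a tetraspan protein of monocyte-derived macrophages, was at 0.530, 1.34 and 1.12 CPM in chow WT and at 1.95, 1.04 and 2.54 CPM in HFCF WT, with overlapping groups (0.88, SE 0.458, adjusted p = 0.18; 1.25 without HFCF WT replicate 2).

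The tetraspanins differed from each other. *Cd63*, found in late endosomes and lysosomes, was at 3.61, 4.96 and 4.94 CPM in chow WT and at 15.7, 5.39 and 25.4 CPM in HFCF WT (log2 fold change 1.53, SE 0.489, adjusted p = 0.0403). The HFCF livers were all higher, replicate 2 only slightly, and without it the value was 2.16. *Cd9*, on the plasma membrane, was at 17.2, 15.6 and 22.0 CPM in chow WT and at 17.1, 10.3 and 21.1 CPM in HFCF WT, and the groups overlapped (-0.22, SE 0.222, adjusted p = 0.495; 0.072 without HFCF WT replicate 2). The *Cd63* call was lost when any 1 of 6 libraries was left out (chow WT replicates 1, 2 and 3, chow HuRHep-/- replicate 2, and HFCF WT replicates 1 and 3), with adjusted p between 0.0539 and 0.149.

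Of the lipid-handling pair, *Lpl*, the lipase that frees fatty acids from circulating lipoproteins, was at 21.8, 20.7 and 16.4 CPM in chow WT and at 51.6, 19.4 and 56.6 CPM in HFCF WT. HFCF WT replicate 2 lay inside the chow range and the other two far above it (log2 fold change 0.98, SE 0.348, adjusted p = 0.0604), and without that liver the gene was called (1.47, adjusted p = 0.00165). *Fabp5*, a cytosolic fatty acid carrier, was at 22.2, 41.8 and 42.3 CPM in chow WT and at 22.9, 13.7 and 13.3 CPM in HFCF WT. It was lower on HFCF apart from chow WT replicate 1, which overlapped the HFCF range (log2 fold change -1.08, SE 0.285, adjusted p = 0.0187). That call was lost without chow WT replicate 2, chow WT replicate 3 or HFCF WT replicate 3, with adjusted p between 0.0555 and 0.0732. Fitted on the 6 WT libraries alone, neither *Fabp5* (0.0512) nor *Cd63* (0.0742) was called.

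*Lgals3*, the secreted lectin galectin-3, was at 2.58, 4.29 and 2.47 CPM in chow WT and at 11.5, 5.48 and 24.8 CPM in HFCF WT, with every HFCF liver higher (log2 fold change 1.94, SE 0.444, adjusted p = 0.00974; 2.48 without HFCF WT replicate 2). *Mmp12*, the macrophage elastase, was at 0.232, 0.201 and 0.264 CPM in chow WT and at 4.45, 1.38 and 13.5 CPM in HFCF WT (log2 fold change 4.15, SE 0.656, adjusted p = 0.00172). Its HFCF livers were all above its chow livers, and without HFCF WT replicate 2 the value was 4.97. With precision weights per observation (limma-voom) in place of the variance trend, 3 of the 10 genes remained called in WT mice, and *Gpnmb* (adjusted p = 0.149), *Mmp12* (0.0974) and *Cd63* (0.124) were not. Over all 14535 genes, voom called 767 higher and 484 lower, against 950 and 488 with the variance trend.

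**Figure D2:**
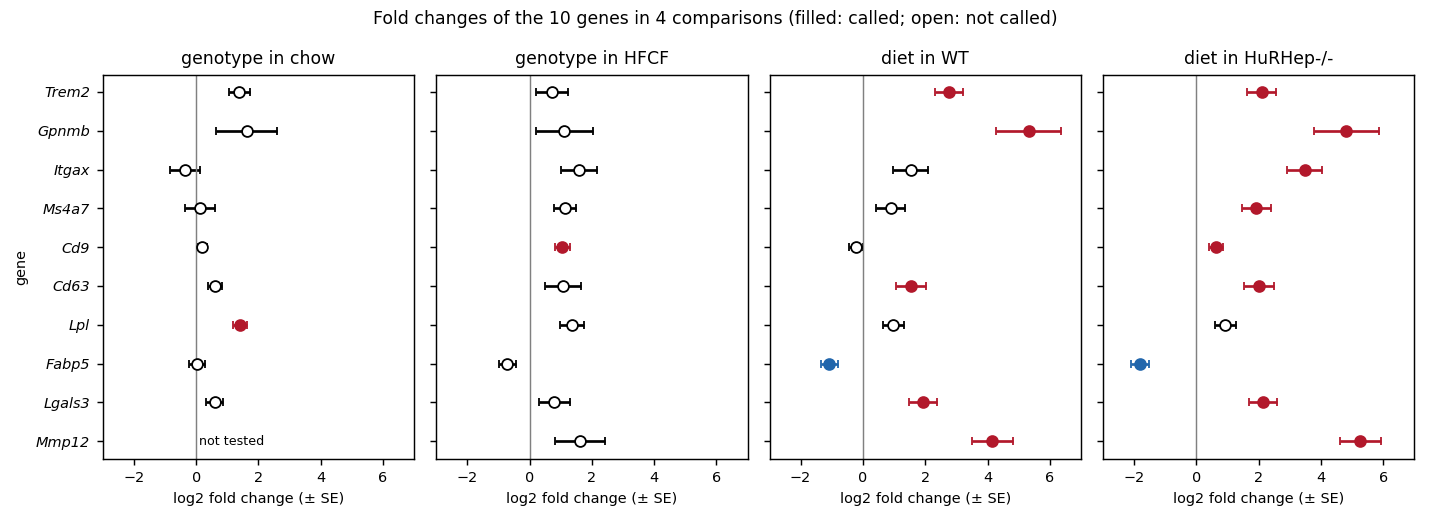
Log2 fold change of each gene (horizontal axis, bars ± SE from limma) in 4 comparisons, with the 10 genes on the vertical axis. Filled red points were called higher, filled blue points called lower, and open points were not called. The 2 diet panels hold 5 and 8 red points and a blue point each for *Fabp5*, and the 2 genotype panels hold 1 red point each, *Lpl* in chow and *Cd9* in HFCF.

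In livers labelled HuRHep-/-, the same diet contrast called 8 of the 10 genes higher, against 14.2% of the 14535 genes tested, and 1 lower (*Fabp5*), against 5.57%. The median log2 fold change of the 10 genes was 2.05, beside -0.020 over all genes. Without *Mmp12* and *Gpnmb*, 6 of 8 genes were called higher and 1 lower (median 1.96). HFCF livers were all higher than chow livers for 9 of the 10 genes, against 26.3% of all genes, and all lower for 1, against 29.2%. This contrast and the one in WT mice use different livers but share 1 estimate of the spread, and both share livers with the genotype comparisons.

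*Trem2* was at 2.15, 1.71 and 0.959 CPM in chow livers labelled HuRHep-/- and at 7.02, 4.70 and 8.66 CPM in HFCF livers of that label (log2 fold change 2.10, SE 0.461, adjusted p = 0.0046). *Itgax* was at 0.669, 0.747 and 0.217 CPM in chow and at 6.11, 3.39 and 7.97 CPM on HFCF (3.48, SE 0.567, adjusted p = 0.000981). Both sets of HFCF livers stood apart from chow, by the wider margin for *Itgax*. *Gpnmb* was at 3.17, 0.187 and 0.371 CPM in chow and at 12.9, 12.5 and 34.3 CPM on HFCF (4.82, SE 1.05, adjusted p = 0.0044). Chow replicate 1 alone held 109 counts of *Gpnmb*, against 6 and 12 in replicates 2 and 3, and without it the log2 fold change was 6.00 (adjusted p = 0.00164). *Ms4a7* was at 1.51, 1.28 and 0.526 CPM in chow and at 3.96, 2.96 and 4.93 CPM on HFCF (1.92, SE 0.458, adjusted p = 0.00699), with no overlap.

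*Cd63* was at 9.28, 6.44 and 5.23 CPM in chow and at 20.7, 20.2 and 48.5 CPM on HFCF (log2 fold change 2.00, SE 0.489, adjusted p = 0.00784). *Cd9* was at 24.5, 19.6 and 18.7 CPM in chow and at 35.2, 32.7 and 29.4 CPM on HFCF (0.64, SE 0.222, adjusted p = 0.0394). Neither pair of groups overlapped, and the *Cd9* change was the smallest of those called. The *Cd9* call was lost without chow HuRHep-/- replicate 2 or 3 or any 1 of the 3 HFCF livers of that label, with adjusted p between 0.053 and 0.118.

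*Lpl* was at 75.2, 47.7 and 39.2 CPM in chow livers labelled HuRHep-/- and at 109.8, 86.0 and 102.9 CPM on HFCF. The HFCF livers were all higher, but the adjusted p of 0.0513 lay just past the threshold (log2 fold change 0.93, SE 0.348), and 5 of the other alternatives called it (adjusted p from 0.0127 to 0.0485). *Fabp5* was at 41.7, 30.7 and 32.7 CPM in chow and at 8.85, 8.0 and 13.5 CPM on HFCF. Every HFCF liver was lower (-1.82, SE 0.285, adjusted p = 0.00079).

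*Lgals3* was at 5.35, 5.38 and 3.31 CPM in chow and at 19.5, 15.7 and 27.1 CPM on HFCF (log2 fold change 2.14, SE 0.444, adjusted p = 0.00342). *Mmp12* was at 0.495, 0.280 and 0.278 CPM in chow and at 11.9, 8.18 and 25.6 CPM on HFCF (5.26, SE 0.656, adjusted p = 0.000284). Groups of both genes were apart. *Mmp12* had 17, 9 and 9 counts in these chow livers.

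Genotype was then compared within each diet. In chow, 9 of the 10 genes passed the filter on low counts, and *Mmp12* did not. Only *Lpl* was called higher in livers labelled HuRHep-/-, 1 of the 9 genes tested, against 1.32% of the 13526 genes tested. From the chow values given above, every liver labelled HuRHep-/- was higher than every WT liver for *Lpl* (log2 fold change 1.42, SE 0.229, adjusted p = 0.0208), *Trem2* (1.39, SE 0.333, adjusted p = 0.0597) and *Cd63* (0.61, SE 0.228, adjusted p = 0.168). These 3 of 9 genes compare with 14.7% of all genes tested. The *Lpl* call was lost without chow WT replicate 1 (adjusted p = 0.0567), chow WT replicate 3 (0.0723) or chow HuRHep-/- replicate 2 (0.0906), and *Trem2* was called without chow HuRHep-/- replicate 3 (adjusted p = 0.0269).

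The other chow differences were not called. *Gpnmb* had the largest of them (log2 fold change 1.63, SE 0.973, adjusted p = 0.357), with 109 counts in chow HuRHep-/- replicate 1 and the other two livers of that label within or next to the WT range. Without replicate 1 it did not pass the filter on low counts. *Lgals3* (0.60, SE 0.273, adjusted p = 0.235) and *Cd9* (0.20, SE 0.151, adjusted p = 0.454) overlapped between genotypes, as did *Itgax* (-0.36, SE 0.472), *Ms4a7* (0.11, SE 0.483) and *Fabp5* (0.03, SE 0.247). The median log2 fold change of the 9 genes was 0.60, beside -0.0013 over all genes tested. Without chow HuRHep-/- replicate 1 it was 0.23 over the 8 genes then tested, with *Cd63* at 0.38, *Trem2* at 1.145 and *Lpl* at 1.15, and *Lpl* was still called (adjusted p = 0.0336).

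On HFCF, all 10 genes were tested, and only *Cd9* was called higher in livers labelled HuRHep-/- (log2 fold change 1.05, SE 0.245, adjusted p = 0.0491), against 2.20% of the 14295 genes tested. All HFCF livers labelled HuRHep-/- were above all HFCF WT livers for *Cd9*, *Lpl* (1.36, SE 0.383, adjusted p = 0.0732) and *Ms4a7* (1.15, SE 0.347, adjusted p = 0.0861), that is for 3 of 10 genes, against 17.1% of all genes. The *Cd9* call was lost without HFCF WT replicate 1 or any 1 of the 3 livers labelled HuRHep-/- (adjusted p between 0.103 and 0.159) and with upper-quartile scaling (0.0519).

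The remaining genes overlapped between genotypes on HFCF and were not called. Log2 fold changes were 1.62 for *Mmp12* (SE 0.795, adjusted p = 0.216), 1.58 for *Itgax* (SE 0.578, 0.125), 1.12 for *Gpnmb* (SE 0.923, 0.449), 1.07 for *Cd63* (SE 0.584, 0.26), 0.80 for *Lgals3* (SE 0.501, 0.322) and 0.72 for *Trem2* (SE 0.510, 0.374). *Fabp5* was the only gene with a negative value (-0.72, SE 0.268, adjusted p = 0.131). The median over the 10 genes was 1.09 (0.60 without HFCF WT replicate 2), beside -0.0093 over all genes tested. Without HFCF WT replicate 2, the log2 fold change was 0.05 for *Gpnmb*, 0.15 for *Trem2*, 0.26 for *Lgals3* and 0.44 for *Cd63*. *Itgax* (0.96), *Mmp12* (0.79) and *Ms4a7* (0.78) kept more of theirs but were not called, and *Cd9* (0.76, adjusted p = 0.0269) and *Lpl* (0.87, adjusted p = 0.0202) were both called.

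Whether the genotype difference itself changed with diet was tested as an interaction over all 12 livers. By limma, 0 of the 10 genes were called in either direction, beside 0% of the 14535 genes tested called higher and 0% called lower. At an unadjusted p under 0.05 the counts were 2 of 10 genes and 14.6% of all genes, and with voom weights also 0 of the 10 were called. Those 2 genes were *Itgax* (difference of log2 fold changes 1.94, SE 0.801, adjusted p = 0.298) and *Cd9* (0.86, SE 0.314, adjusted p = 0.259). Without HFCF WT replicate 2 the values were 1.33 for *Itgax* and 0.56 for *Cd9*. *Lpl*, with near-equal genotype differences in both diets, had -0.05 (SE 0.492), and *Trem2* had -0.66 (SE 0.652). Without that liver, *Lpl* had -0.54 and *Trem2* -1.23. With 3 mice per group these standard errors leave room for differences of over 1 log2 unit in most of the genes.

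The wider macrophage and monocyte compartments were read from lists of marker genes, described by counts and medians. Over all genes, 6.54% were called higher and 3.36% lower in the WT diet contrast, and 14.2% and 5.57% in livers labelled HuRHep-/-. Without HFCF WT replicate 2, 8.8% of all genes were called higher in WT, with 12 of 23 further lipid-associated macrophage genes, 10 of 14 pan-macrophage, 8 of 11 monocyte, 7 of 7 chemoattractant, 6 of 10 stellate cell and fibroblast and 0 of 5 cholangiocyte markers. With all libraries, 10 of 23 further lipid-associated macrophage genes were called higher in the WT diet contrast, and 13 were called higher and 1 lower in livers labelled HuRHep-/- (medians 0.43 and 0.74). The largest rises in WT mice were those of *Cd36*, a fatty acid and lipoprotein scavenger receptor (log2 fold change 1.95), the actin-capping gene *Capg* (1.58) and *Fabp4* (1.34), and those in livers labelled HuRHep-/- were *Cd36* (2.79), *Capg* (2.13) and *Anxa5* (1.66). The lysosomal protease *Ctsz* was the only gene of the list called lower (-0.67). *Tyrobp*, the adaptor through which Trem2 signals, was called higher in both (0.87 and 1.24). *Spp1* (osteopontin) was called only in livers labelled HuRHep-/- (1.48, against 0.43 in WT, interaction 1.05, SE 0.551, adjusted p = 0.405), and *Apoe*, which hepatocytes also make in large amounts, was called in neither (0.25 and 0.39). In chow, *Cd36* was called lower in livers labelled HuRHep-/- (-0.98, SE 0.181, adjusted p = 0.0301), the opposite sign to *Lpl*, and it was not called without chow HuRHep-/- replicate 1.

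**Figure D3:**
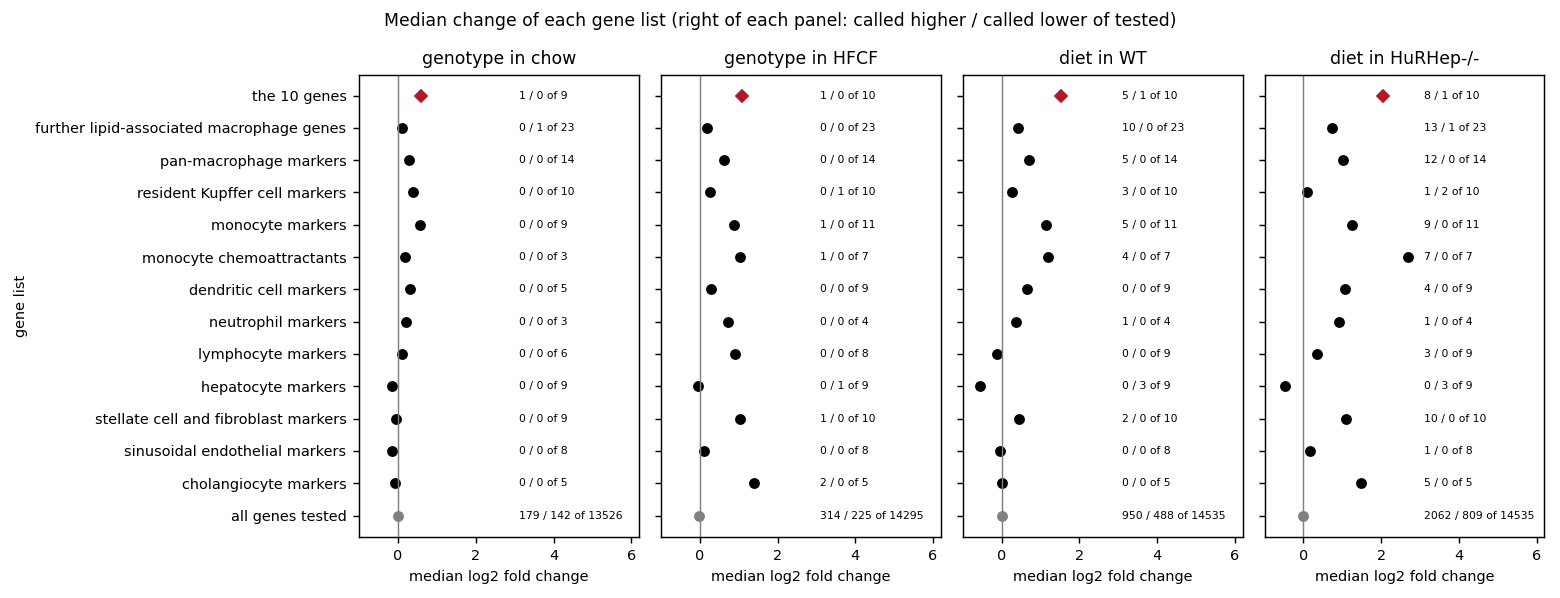
Median log2 fold change (horizontal axis) of each gene list (vertical axis) in 4 comparisons. The red diamond is the 10 genes, the grey point all genes tested, and the text in each panel gives the genes called higher and lower of those tested. In both diet panels the 10 genes lie right of the pan-macrophage markers, at 1.53 against 0.69 in WT and 2.05 against 1.02 in livers labelled HuRHep-/-.

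Of 14 pan-macrophage markers, 5 were called higher on HFCF in WT mice and 12 in livers labelled HuRHep-/-, beside 6.54% and 14.2% of all genes (medians 0.69 and 1.02, beside 1.53 and 2.05 for the 10 genes; the difference between the lists was not tested). The leading genes were *Cd68* (1.24), *Spi1*, which encodes PU.1 (0.96), and *Fcer1g* (0.88) in WT, and *Cd14* (1.72), *Spi1* (1.42) and *Cd68* (1.37) in livers labelled HuRHep-/-. *Adgre1* had log2 fold changes of 0.67 (adjusted p = 0.0883) and 0.77 (adjusted p = 0.0387), and *Csf1r*, the receptor on which macrophages depend, 0.41 (adjusted p = 0.229) and 0.70 (adjusted p = 0.0351). As a share of the summed pan-macrophage level, *Trem2* ran from 0.190% to 0.218% in chow WT, from 0.297% to 0.860% in chow HuRHep-/-, from 0.558% to 1.78% in HFCF WT and from 1.08% to 1.87% in HFCF HuRHep-/-. *Fabp5* ran the other way, from 8.47% to 16.0% in chow WT down to 1.77% to 2.91% in HFCF HuRHep-/-. Between genotypes, 0 of 14 pan-macrophage markers were called in chow and 0 of 14 on HFCF by limma, with 2 and 11 at an unadjusted p under 0.05, beside 23.4% and 29.6% of all genes.

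Resident Kupffer cell markers were split. In WT mice on HFCF, *Cd5l* (log2 fold change 1.19), *Vsig4* (0.67) and *Clec1b* (0.62) were called higher among 10 tested. In livers labelled HuRHep-/-, *Cd5l* was called higher (0.99), and *C6* (-1.51) and the scavenger receptor *Cd163* (-1.39) lower. The embryonic Kupffer cell marker *Timd4* stood at 1.75 to 5.54 CPM over all libraries and was called in neither diet contrast (-0.34, adjusted p = 0.38, and -0.57, adjusted p = 0.114), and *Clec4f* likewise (0.46, adjusted p = 0.0685, and 0.37, adjusted p = 0.102). *C6* was also the only Kupffer marker called between genotypes on HFCF (-1.66, SE 0.221, adjusted p = 0.0173); it encodes a complement component and stood at 60.9 to 323 CPM, within a summed Kupffer level of 333 to 529 CPM. Without *C6*, the other 9 markers summed to 155 to 179 CPM in chow WT, 202 to 298 CPM in chow HuRHep-/-, 230 to 331 CPM in HFCF WT and 262 to 451 CPM in HFCF HuRHep-/-, and only the chow WT range stood apart from the others.

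Of 11 monocyte markers tested, 5 were called higher on HFCF in WT and 9 in livers labelled HuRHep-/- (medians 1.15 and 1.25), beside 6.54% and 14.2% of all genes called higher. *Chil3* and *F13a1* did not pass the filter in chow and entered through their HFCF libraries, and without them 5 and 8 of 9 were called (medians 1.15 and 1.22). *Ccr2* rose from 0.497 to 0.659 CPM in chow WT to 0.858 to 3.50 CPM on HFCF (log2 fold change 1.67, SE 0.461, adjusted p = 0.0223), and from 0.557 to 1.43 CPM to 3.37 to 5.51 CPM in livers labelled HuRHep-/- (2.11, SE 0.461, adjusted p = 0.0045). *Ms4a4c* (1.46) and *Clec12a* (1.15) also led in WT, and the fractalkine receptor *Cx3cr1* (2.34) and *S100a4* (2.25) led in livers labelled HuRHep-/-. Of 7 genes for chemokines and growth factors that draw monocytes, 4 and 7 were called higher (medians 1.18 and 2.70). *Ccl2*, *Ccl3*, *Ccl4* and *Ccl7* did not pass the filter in chow and entered through their HFCF libraries. Without them, 1 and 3 of 3 were called, with lower medians of 0.73 and 1.96. The main monocyte chemokine *Ccl2* had 4 to 15 counts per chow liver and rose by 2.31 and 3.36 log2 units, and *Ccl3*, with 1 to 6 counts in chow WT livers against 8 to 24 on HFCF, was called higher. *Ccl7* was called in both contrasts, with 0 to 1 counts in chow WT livers against 3 to 15 on HFCF, and 1 to 3 against 17 to 24 in livers labelled HuRHep-/-. *Ccl4* was called in livers labelled HuRHep-/-, with 1 count in each chow liver against 32 to 49 on HFCF. Between genotypes on HFCF, the only calls in these lists were *Plac8* (0.75, adjusted p = 0.0455) and the fractalkine gene *Cx3cl1* (1.48, adjusted p = 0.0376), and *Plac8* was not called without HFCF WT replicate 2.

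**Figure D4:**
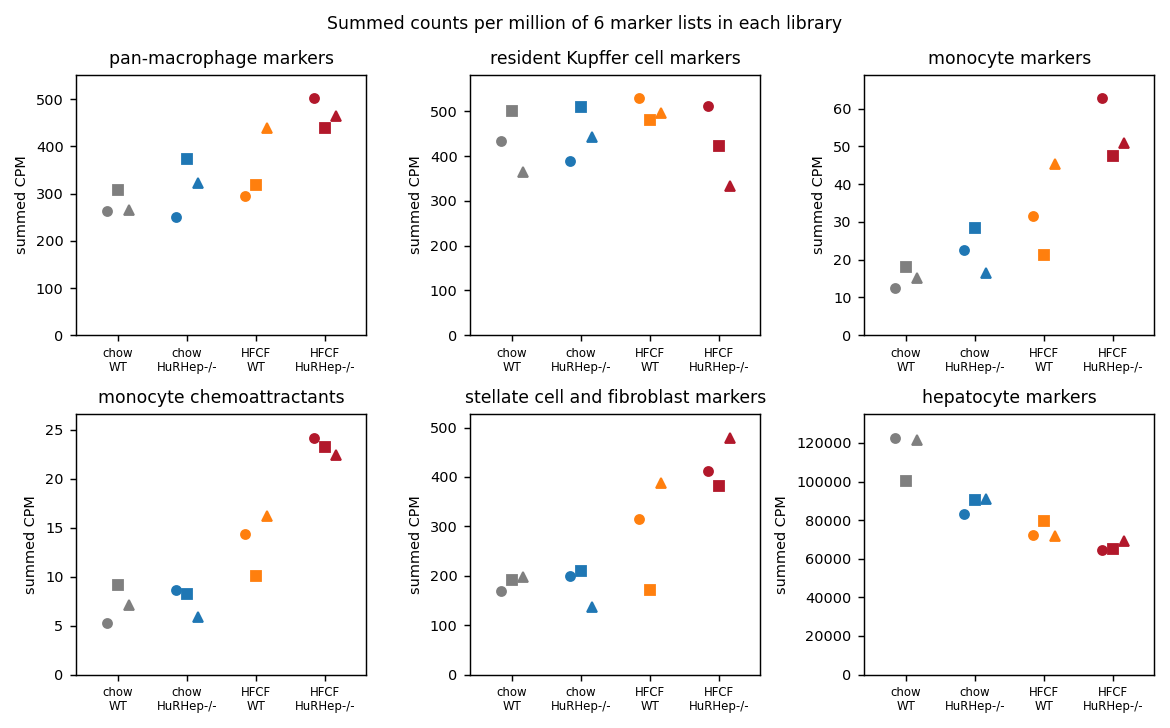
Summed CPM (vertical axes from 0) of 6 marker lists in each of the 12 libraries, with circles, squares and triangles for replicates 1, 2 and 3. The monocyte sums of the HFCF livers labelled HuRHep-/- lie between 47.4 and 62.7 CPM, above all 9 other livers (12.4 to 45.4 CPM). The Kupffer sums hold *C6* at 60.9 to 323 CPM and overlap between the 4 groups.

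Markers of other cells were counted in the same contrasts. All 10 stellate cell and fibroblast markers were called higher on HFCF in livers labelled HuRHep-/-, led by *Timp1*, *Col1a1* (2.80) and *Col3a1* (2.23), and 2 of 10 in WT (*Timp1* and *Lrat*, 0.70). *Timp1* had 0 to 7 counts per chow liver against 9 to 62 in HFCF WT and 76 to 199 in HFCF livers labelled HuRHep-/-, so it entered through its HFCF libraries, and without it 9 of 9 and 1 of 9 were called, beside 14.2% and 6.54% of all genes. Their summed level ran from 137 to 209 CPM in the 6 chow livers, from 171.0 to 389 CPM in HFCF WT and from 382 to 480 CPM in HFCF HuRHep-/-. Cholangiocyte markers were called higher in 5 of 5 tested in livers labelled HuRHep-/- (*Krt7*, 1.97, *Krt19*, 1.72, and *Spp1*) and in 0 of 5 in WT by limma. The interaction test called 0 of these 5 and 0 of the 10 stellate cell and fibroblast markers, beside 0 of 14535 genes. At an unadjusted p under 0.05 its counts were 4 of 5 and 2 of 10, beside 14.6% of all genes. Between genotypes on HFCF, *Krt7* (1.39), *Krt19* (1.31) and the smooth muscle actin gene *Acta2* (1.27) were called higher, beside 2.20% of all genes. With HFCF WT replicate 2 left out, 1 of 5 cholangiocyte and 2 of 10 stellate cell and fibroblast markers were called higher. The share over all genes was then 1.5%. *Cd9*, *Lgals3* and *Cd63* are made in these cell types too, and their part in the results for those genes was not tested.

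Many lymphocyte, dendritic and neutrophil markers had few counts, and *Cd3e*, *Cd8a*, *Flt3* and *Elane* did not pass the filter in chow. On HFCF in livers labelled HuRHep-/-, 3 of 9 lymphocyte markers were called higher (*Cd8a*, 1.84, *Nkg7*, 1.45, and *Cd3e*, 1.44), 4 of 9 dendritic cell markers (led by *Flt3*, 2.26, *Ccr7*, 1.57, and *Xcr1*, 1.32) and 1 of 4 neutrophil markers (*Csf3r*, 1.03). Over the markers that passed the filter in chow, these counts were 1 of 6, 3 of 5 and 1 of 3, beside 14.2% of all genes, so the lymphocyte share lay near that of all genes. In WT the only call in these lists was the granulocyte elastase *Elane*, with 0 to 3 counts per chow WT liver against 10 to 30 on HFCF. With HFCF WT replicate 2 left out, 2 of 4 neutrophil and 1 of 9 dendritic cell markers were called higher in WT. For lymphocyte markers it was 0 of 9, and 8.8% of all genes were then called higher. Among 8 sinusoidal endothelial markers, only *Pecam1* was called higher (0.65) in livers labelled HuRHep-/-, a share near that of all genes. Hepatocyte markers went the other way, with 3 of 9 called lower in each diet contrast. The shares over all genes were 3.36% in WT and 5.57% in livers labelled HuRHep-/-. The calls were *Ass1* (-0.93), *Fgb* (-0.87) and *Cps1* (-0.83) in WT, and *Fgb* (-0.92), *Cps1* (-0.81) and *Cyp2e1* (-0.63) in livers labelled HuRHep-/-. With HFCF WT replicate 2 left out, 5 of 9 were called lower in WT, beside 4.16% of all genes. The summed level of the 9 hepatocyte markers, of which *Alb* made up 58.3% to 66.0%, was 100200 to 122800 CPM in chow WT and 64300 to 69190 CPM in HFCF HuRHep-/-, a difference that was not tested. *Alb* itself was called in neither diet contrast (adjusted p = 0.0687 and 0.30). *Cyp2e1* was also the hepatocyte marker called lower between genotypes on HFCF (-0.77, adjusted p = 0.0432), a call lost without HFCF WT replicate 2.

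Positions of the genes in GRCm38 and the sequence they share with other genes bear on the counts. *Trem2* (chr17:48346401-48354147, plus strand), *Ms4a7* (chr19:11321039-11336146, minus strand) and *Lgals3* (chr14:47367751-47386160, plus strand) shared no word of 31 bases of their principal GENCODE transcript with another gene's transcripts, and *Gpnmb* (chr6:49036546-49070929, plus strand) and *Mmp12* (chr9:7344381-7369499, plus strand) shared 0.192% and 0.447%. *Lpl* (chr8:68880491-68907448, plus strand) shared 2.26% and *Cd9* (chr6:125460266-125494791, minus strand) 6.26%. *Cd63* (chr10:128900989-128912822, plus strand) shared 48.1% with the pseudogene *Cd63-ps*, and *Fabp5* (chr3:10012548-10016607, plus strand) 33.1% with 5 genes, led by *Gm6166* (27.2%), which was listed in the HFCF table only. *Itgax* (chr7:128129547-128150657, plus strand) shared 12.7% with its neighbour in the integrin family, *Itgad*, which was also listed in the HFCF table only. Counts of *Cd63*, *Fabp5* and *Itgax* are therefore uncertain to the extent that the counting split or dropped such reads.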

How the data were processed

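Liver total RNA of 12 mice was sequenced with a stranded kit, 1 library per mouse. Reads were mapped by the authors to RefSeq GRCm38.p6 on the reverse strand, using CLC Genomics Workbench (the submitters' processing notes name GRCm38.p6 and mm10), and raw read counts per gene were deposited in 2 tables, chow and HFCF, as text with digit commas. Its software version is not given in the sources used here. Commas were removed here and every value was whole. Depth was 30071731 to 35949203 counts per library, and no 2 libraries were identical.

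Limma 3.58.1 (R 4.3.3) with a variance trend was run on log2 CPM computed here with a pseudocount of 0.5 counts and TMM factors (trims 0.3 and 0.05). It was chosen over a count model because of the text format, although the values were whole counts once the commas were removed. A gene was tested if at least 3 libraries reached the CPM that 10 counts give at median depth, with 15 counts in all. P-values were adjusted by Benjamini-Hochberg over all genes tested, and called genes had adjusted p at most 0.05 and fold change at least 1.5. Genotype was fitted per diet on 6 libraries, and diet and the interaction on 12 libraries over 20093 genes in both tables. The labels do not say that replicates shared litters or days. An exact permutation test of 1 gene in 3 against 3 mice cannot go below 0.1 and was not used.

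The members and the 12 marker lists were chosen with earlier results of these data known. Named were the 10 members, *Elavl1*, 12 defining markers, and from each list the called genes with the largest change, up to 3 higher and 3 lower per comparison. *Itgam* and *Tf* were not analysed here. The fits were tested on simulated data with known changes. Alternatives were RLE and upper-quartile factors, a pseudocount of 2, other filters, voom weights, the replicate block, fits on other libraries and leaving out each library. Promoters came from RefSeq, positions and transcripts from GENCODE M21. Python 3 with pandas and matplotlib did the rest.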

Additional observations from a re-analysis of the deposited data

How the results depend on the processing

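Log2 fold changes of the members moved little with scaling, pseudocount, filter, voom weights or the libraries in the fit: the median over the 10 genes stayed within 0.56 to 0.61 for genotype in chow, 1.09 to 1.13 for genotype in HFCF, 1.49 to 1.58 for diet in WT and 2.03 to 2.13 for diet in HuRHep-/-. Leaving out 1 library moved it further, to 0.23 (without chow HuRHep-/- replicate 1) to 0.68, 0.60 to 1.498, 1.03 to 2.16 and 1.79 to 2.29. The number of the 10 genes called then ran from 0 to 2 for genotype in chow (1 with all libraries), 0 to 2 for genotype in HFCF (1), 4 to 8 for diet in WT (6) and 8 to 10 for diet in HuRHep-/- (9). For genotype in HFCF, 0 genes were called with upper-quartile factors and 2 with all 12 libraries in the fit. For diet in WT, 3 were called with voom weights, which called 767 higher and 484 lower of all 14535 genes.

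Signs changed only when 1 library was left out. In chow the range was -0.28 to 0.19 for *Fabp5*, -0.28 to 0.57 for *Ms4a7* and -0.67 to 0.19 for *Itgax*, and for diet in WT it was -0.44 to 0.072 for *Cd9*. Interaction values ran from -0.33 to 0.76 for *Lgals3*, -0.54 to 0.24 for *Lpl*, -1.57 to 0.68 for *Gpnmb* and -0.16 to 0.97 for *Cd63*. The cause was not tested.

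Replicate numbers did not pair the samples: correlations of same-numbered deviations between genotypes were -0.030, 0.109 and -0.0033 in chow and 0.088, 0.188 and 0.087 in HFCF. With the replicate block, 5 of the 10 genes were called for genotype in HFCF (*Cd9*, *Itgax*, *Lpl*, *Mmp12* and *Ms4a7*, the last 4 with adjusted p from 0.0265 to 0.0368), against 1 without it, and 1, 7 and 10 in the other contrasts in the order above. The block also raised the calls over all 14295 genes for genotype in HFCF, from 314 higher and 225 lower to 468 and 276. In the other contrasts it called 145 and 125 of 13526 genes, 916 and 512 of 14535, and 2026 and 825 of 14535. Across all genes, leaving out 1 library took the calls for genotype in chow from 179 higher and 142 lower down to 4 and 5 (without chow HuRHep-/- replicate 2), and those for genotype in HFCF from 314 and 225 to between 8 and 24 (without HuRHep-/- replicate 1) and 581 and 274 (without WT replicate 3). Counts of fewer than 20 per chow library limit *Mmp12*, and the same holds for *Gpnmb* in 5 of 6 chow livers.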
